A study of Mus musculus with 12 samples.

Results

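Open chromatin was compared at day 5 of mesodermal differentiation between mouse embryoid bodies that lacked Foxk1 and embryoid bodies of the iHA-Foxk1 line. The comparison was defined by its library titles: FoxK1_KO_D5 replicates 1 and 2 against iFoxk1_ND_D5 replicates 1 and 2, which are 4 of the 12 ATAC-seq libraries of the study. Embryoid bodies are aggregates of embryonic stem cells that differentiate in suspension, and ATAC-seq marks open chromatin by where the Tn5 transposase inserts. The study sampled days 3, 5 and 10, with 2 libraries in each of its 6 groups. The knockout group carries the genotype label FoxK1_KO and the control group the label iFoxk1_ND, from the line that the protocols call iHA-Foxk1. Both groups are labelled NoDox, read here as grown without doxycycline, and no other treatment is named. The control arm is therefore an engineered line and is not described as an unmodified one. How either line was built, and whether each is 1 clone, is not given in the sources used here. All stem cells had been grown on irradiated mouse embryonic fibroblasts, which were removed by plating before differentiation. The labels do not state whether replicate libraries were separate differentiations, so the spread between them may be technical.

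Foxk1 is a forkhead transcription factor that binds DNA through its winged-helix domain and recruits the Sin3 corepressor complex. It is best known from muscle progenitor cells, where it takes part in the control of the cell cycle, and from work on autophagy and glycolysis. Cardiac mesoderm arises from the primitive streak and then depends on transcription factors of the Gata, Hand, Tbx, Isl and Mef2 families, with BMP and Wnt ligands as the main outside signals.

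The data are lists of peak summits, 1 position per peak, each with a score but with no read counts and no widths. On chromosomes 1 to 19 and X the knockout lists held 48391 and 42129 summits and the iHA-Foxk1 lists 14519 and 34040. Every list was therefore reduced to its 14519 best scores, which takes the whole list of iHA-Foxk1 replicate 1. At that depth of list the last score kept was 20.5 and 17.2 in the knockout libraries, 16.0 in iHA-Foxk1 replicate 2 and 1.32 in iHA-Foxk1 replicate 1, so the last library contributed summits of much lower score. Peak names inside both knockout lists carry the tag D7 although they are labelled day 5. The labels were kept here, and a difference in day between the arms cannot be told apart from a difference in genotype. Of the 14519 best summits of knockout replicate 1, 85.5% had a summit of knockout replicate 2 within 250 bp. The same share for the iHA-Foxk1 pair was 65.6%, and 76.9% of the summits of knockout replicate 1 were shared with iHA-Foxk1 replicate 2. The iHA-Foxk1 libraries thus differed more from each other than iHA-Foxk1 replicate 2 did from the knockout.

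Summits within 250 bp were merged into regions. A region was called knockout-only when both knockout libraries and neither iHA-Foxk1 library held it, and control-only in the reverse case. Of 23236 regions, 14273 were held by both libraries of at least 1 arm and are called reproducible below. Among these, 1723 were knockout-only (12.1% called) and 1137 control-only (7.97% called), while 8223 were held by all 4 libraries. At the same list length the order turned, to 1994 knockout-only and 2763 control-only without iHA-Foxk1 replicate 1, and 4162 and 5294 without replicate 2. With 1 library left in an arm, a call for that arm needs no second library, so these counts do not test the order. A rank below is the place of a summit in its own list, with rank 1 the highest score. Because the full lists differ in length, ranks show where a summit lay against the limit of 14519, and no change between days is read from them. With 2 libraries against 2, an exact permutation test cannot give a p-value under 0.33, so no such test was made and the calls are descriptions of these 4 libraries.

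The promoters of 7 genes are shown as examples of where calls lay at gene starts, and they do not stand for the called sets. The sequences, from RefSeq on GRCm38.p6 (the assembly of mm10), run 5′ to 3′ over the 250 bases before an annotated gene start, with the motifs found in them in capitals. Gata5, Lhx1, Wnt3 and Cdx2, regulators of mesoderm and endoderm or a signal of the primitive streak, carried control-only regions. Zfp42, a marker of naive stem cells, and Hprt, a purine salvage enzyme, carried knockout-only regions. The promoter of Lin28a, on the same pluripotency list as Zfp42, carried a control-only region and is not shown. Promoters of Scn7a, Rbpj and Cdk6, also control-only, are not shown either. Tmem267, a gene of a transmembrane protein, carried a call in each direction at different annotated starts, and both promoters are shown.
Gata5, chr2:180334680-180334929, minus strand, control-only: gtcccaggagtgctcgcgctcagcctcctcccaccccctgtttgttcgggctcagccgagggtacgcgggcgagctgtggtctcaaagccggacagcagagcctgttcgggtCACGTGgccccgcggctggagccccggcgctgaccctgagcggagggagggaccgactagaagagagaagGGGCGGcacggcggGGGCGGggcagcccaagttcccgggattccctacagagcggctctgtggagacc
Lhx1, chr11:84525535-84525784, minus strand, control-only: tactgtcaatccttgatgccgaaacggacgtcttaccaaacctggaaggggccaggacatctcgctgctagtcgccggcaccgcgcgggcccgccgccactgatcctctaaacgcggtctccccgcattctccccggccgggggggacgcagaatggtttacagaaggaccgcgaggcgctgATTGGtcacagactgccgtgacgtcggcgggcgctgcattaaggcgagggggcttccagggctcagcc
Wnt3, chr11:103773925-103774174, plus strand, control-only: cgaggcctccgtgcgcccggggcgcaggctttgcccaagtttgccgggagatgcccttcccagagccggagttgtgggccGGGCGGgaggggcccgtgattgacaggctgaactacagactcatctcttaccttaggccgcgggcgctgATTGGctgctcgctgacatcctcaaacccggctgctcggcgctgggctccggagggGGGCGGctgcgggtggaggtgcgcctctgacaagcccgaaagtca
Cdx2, chr5:147307250-147307499, minus strand, control-only: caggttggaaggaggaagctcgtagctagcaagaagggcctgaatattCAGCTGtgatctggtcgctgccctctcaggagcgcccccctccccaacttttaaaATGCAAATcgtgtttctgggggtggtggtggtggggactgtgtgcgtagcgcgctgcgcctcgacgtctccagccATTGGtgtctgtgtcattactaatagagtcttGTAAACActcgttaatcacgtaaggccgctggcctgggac
Zfp42, chr8:43307010-43307259, minus strand, knockout-only: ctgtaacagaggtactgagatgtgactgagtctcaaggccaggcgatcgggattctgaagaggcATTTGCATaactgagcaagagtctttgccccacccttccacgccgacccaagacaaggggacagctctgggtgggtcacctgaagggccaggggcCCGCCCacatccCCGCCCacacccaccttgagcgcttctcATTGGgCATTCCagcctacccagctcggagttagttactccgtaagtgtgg
Hprt, chrX:52987828-52988077, plus strand, knockout-only: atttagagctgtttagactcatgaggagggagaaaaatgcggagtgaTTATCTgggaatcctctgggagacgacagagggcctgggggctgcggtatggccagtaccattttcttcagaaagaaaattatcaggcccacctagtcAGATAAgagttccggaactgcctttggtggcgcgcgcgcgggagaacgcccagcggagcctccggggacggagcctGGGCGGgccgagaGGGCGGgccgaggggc
Tmem267, chr13:119487836-119488085, plus strand, control-only: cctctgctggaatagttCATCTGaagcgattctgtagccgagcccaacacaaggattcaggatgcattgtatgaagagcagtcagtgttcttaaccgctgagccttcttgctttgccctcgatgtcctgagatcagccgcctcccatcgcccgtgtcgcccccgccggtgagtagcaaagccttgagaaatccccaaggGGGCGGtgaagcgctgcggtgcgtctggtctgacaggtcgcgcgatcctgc
Tmem267, chr13:119488223-119488472, plus strand, knockout-only: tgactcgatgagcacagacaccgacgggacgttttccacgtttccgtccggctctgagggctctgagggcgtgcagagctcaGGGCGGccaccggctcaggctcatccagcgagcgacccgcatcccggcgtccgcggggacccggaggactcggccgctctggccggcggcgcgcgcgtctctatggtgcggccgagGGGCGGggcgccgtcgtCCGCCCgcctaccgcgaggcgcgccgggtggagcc
The capitals mark GC boxes in Gata5, Wnt3, Zfp42, Hprt and both Tmem267 promoters, and CCAAT boxes in Lhx1, Wnt3, Cdx2 and Zfp42. Gata5 also holds the E-box CACGTG, Tmem267 upstream the E-box CATCTG, Hprt both orientations of a GATA motif, and Zfp42 an octamer and a TEAD motif. Cdx2 was the one of these with a forkhead motif, beside an E-box CAGCTG and an octamer. The Cdx2 region ran from 3 bases before the start to 138 after it, so none of these marked motifs lay within it. The Gata5 region lay 214 to 77 bases before the start, that of Lhx1 113 to 30 bases before it, and that of Wnt3 from 138 bases before to 15 after. The Zfp42 summits fell 117 and 116 bases before the start, and the Hprt region lay 18 to 51 bases after it.

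The targeted gene was looked at first. The region at the lower end of Foxk1 (chr5:142401416-142401513) ranked 7071 and 9691 in the knockout and 8475 in iHA-Foxk1 replicate 2, and was not listed in iHA-Foxk1 replicate 1. A region inside the gene, chr5:142440490-142440665, ranked 4872 and 4322 in the knockout and 335 and 2054 in iHA-Foxk1. Summits were thus listed across the gene in both arms. Open chromatin does not report the transcript, and which part of Foxk1 was removed is not given in the sources used here, so these values do not check the knockout labels. Of the regions near Foxk1, that at chr5:142416418-142416489, 14921 bp inside the nearer gene end, was control-only. Its ranks were 7092 and 7692 in iHA-Foxk1 and 15936 and 19363 in the knockout, where it fell outside the 14519 best. Foxk2, the closest relative of Foxk1, held a region at its lower end in all 4 libraries, with ranks of 2940 and 5211 in the knockout and 10869 and 3100 in iHA-Foxk1. Over 14 genes of the Foxk group and its partners (Sin3 and Bap1 complex members, Dvl and Foxo genes), 17 regions were reproducible. Of these, 10 were held by all 4 libraries, none was knockout-only and 1 was control-only (5.88%). Over all reproducible regions with a gene end within 100 kb, 7.96% were knockout-only and 7.27% control-only.

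The call sets differed in their state at day 3, in 4 libraries that the calls did not use. Control-only regions were less often listed there than reproducible regions in general, while knockout-only regions stood near these. Over all 14273 reproducible regions, a summit within 250 bp was listed for 94.0% and 93.9% in the day 3 knockout libraries and for 93.8% and 94.0% in the day 3 iHA-Foxk1 libraries. Among knockout-only regions a summit within 250 bp was listed for 95.8% and 96.1% in the day 3 knockout libraries and for 90.7% and 91.5% in the day 3 iHA-Foxk1 libraries. All 4 day 3 libraries held 1464 of the 1723 (85.0%, 95% Wilson interval 83.2 to 86.6), and 21 (1.22%) were held by none. The shares of control-only regions were 46.9% and 44.8% in the day 3 knockout libraries and 54.8% and 56.5% in the day 3 iHA-Foxk1 libraries, with 398 of 1137 held by all 4 (35.0%, 32.3 to 37.8) and 376 (33.1%) by none. Intervals here cover counting error only, since regions of 1 library are not independent samples.

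**Figure D1:**
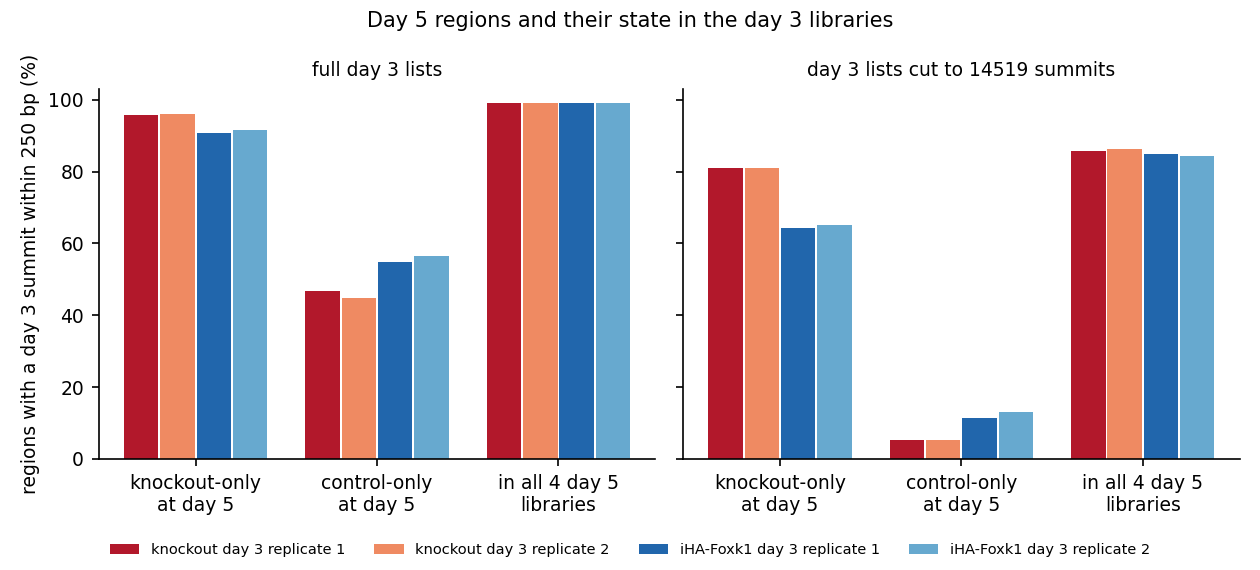
Share of day 5 regions (vertical axis, percent) with a summit within 250 bp in each of the 4 day 3 libraries (bars), for knockout-only, control-only and shared regions, with full day 3 lists on the left and lists cut to 14519 summits on the right. Knockout-only bars reach 90.7% or more on the left and control-only bars 56.5% or less, and on the right the control-only bars fall to 13.0% or less.

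When the day 3 lists were also reduced to 14519 summits, the gap between the sets was wider. Knockout-only regions were then listed for 81.0% and 81.1% in the day 3 knockout and 64.4% and 65.1% in the day 3 iHA-Foxk1 libraries. Control-only regions were listed for 5.37% and 5.28% and for 11.5% and 13.0%. Regions held by all 4 day 5 libraries stood at 85.8% and 86.3% in the day 3 knockout and 84.8% and 84.2% in the day 3 iHA-Foxk1 libraries, and all reproducible regions at 73.9%, 74.2%, 71.4% and 71.3%. Among the 14519 best summits of day 3, 82.1% of the control-only regions were in no day 3 library against 9.29% of the knockout-only regions. The order held among regions away from genes (elsewhere in the classes used below), where a day 3 iHA-Foxk1 summit was listed for 91.3% and 92.4% of knockout-only and 48.1% and 49.9% of control-only regions. At gene ends the sets were close: 87.1% (81.9 to 91.0) and 86.1% (80.8 to 90.2) of 209 knockout-only against 82.2% (76.2 to 87.0) and 82.7% (76.7 to 87.4) of 191 control-only regions, with overlapping intervals. With day 3 lists of 14519 these gene-end shares were 45.0% and 50.7% against 22.0% and 24.1%. The order held also for regions with no summit of the other arm within 1 kb at any score. Of these, 92.5% and 93.1% of the knockout-only and 25.9% and 25.3% of the control-only regions had a summit in the day 3 iHA-Foxk1 libraries. In each of the 14 distinct alternative settings tried, the share of regions found in both day 3 iHA-Foxk1 libraries was higher for knockout-only than for control-only regions, and the settings that moved it most are given in the closing section.

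Whole lists showed a related pattern. At 14519 summits each, the day 5 knockout libraries shared 75.4% to 76.6% of their summits with the day 3 knockout libraries and 70.8% to 71.7% with the day 3 iHA-Foxk1 libraries. The day 5 iHA-Foxk1 libraries shared less with day 3 of either genotype: 49.9% to 50.5% for replicate 1 and 62.3% to 63.2% for replicate 2. Day 10 lists, which are short and whose peak names lack the duplicate-removal tag of the earlier days, held few of the called regions. The share in a day 10 library was between 4.93% and 8.88% for knockout-only, between 1.06% and 4.84% for control-only and between 25.1% and 74.5% for regions of all 4 day 5 libraries.

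Single regions show what this means. A region 83256 bp from Slc4a3, an anion exchanger gene (chr1:75642687), ranked 135, 151, 265 and 594 in the 2 knockout and 2 iHA-Foxk1 libraries of day 3. At day 5 it ranked 7366 and 3705 in the knockout and had no iHA-Foxk1 summit within 1 kb. A region 41345 bp from Ptgs1, the cyclooxygenase 1 gene (chr2:36299938-36299946), ranked 591, 559, 3364 and 2707 at day 3 and 7190 and 4843 in the day 5 knockout, again with no iHA-Foxk1 summit at day 5. Both were thus among the 14519 best of all 4 day 3 libraries and of the day 5 knockout libraries. The region near Col11a1, a fibrillar collagen gene (chr3:114278764-114278769), was also present in all 4 day 3 libraries, with ranks of 1414, 1311, 9929 and 11495 at day 3 and 3968 and 2804 in the day 5 knockout. Others were listed at day 3 in the knockout alone. The region 9606 bp from Il17a, a cytokine gene (chr1:20744102-20744130), ranked 1684 and 1100 in the day 3 knockout and 6463 and 4344 at day 5, and no iHA-Foxk1 library of either day listed it.

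Genes of early embryonic cells were among those with knockout-only regions. The gene-end region of Zfp42 ranked 13110 and 7531 in the knockout at day 5 and 24734 in iHA-Foxk1 replicate 2, with no summit in iHA-Foxk1 replicate 1. At day 3 it had ranked 2688 and 3666 in the knockout and 5571 and 4894 in iHA-Foxk1. A region in Tfcp2l1, a regulator of naive pluripotency (chr1:118648209-118648210), ranked 11575 and 11267 in the knockout with no iHA-Foxk1 summit at day 5, against ranks of 3003 to 10283 in the day 3 libraries. A region inside Fgf5, a growth factor of the primed epiblast (chr5:98255915-98256044), ranked 14477 and 11530 in the knockout, and its day 3 ranks were 2940 to 5683. A region 4337 bp from Lefty2, a Nodal inhibitor (chr1:180888730-180888771), ranked 12203 and 11378 in the knockout and 26909 in iHA-Foxk1 replicate 2, against 2994 to 4696 at day 3. These 4 regions were among the 14519 best of every day 3 library. The region inside Etv4, an ETS factor of the primed epiblast list, ranked 13081 and 9100 in the day 5 knockout and 16102 in iHA-Foxk1 replicate 2, and with day 3 ranks of 15344, 11812, 10448 and 11055 it was among the best of 3 of the 4. The pluripotency list as a whole leaned the other way, with 10 and 10 summits among the 14519 best in the knockout and 16 and 17 in iHA-Foxk1. Of its 14 reproducible regions, 2 were knockout-only (14.3%; Zfp42 and Tfcp2l1) and 4 control-only (28.6%), near Sall4, Lin28a, Dppa4 and Nanog. Over all reproducible regions with a gene end within 100 kb, 7.96% were knockout-only and 7.27% control-only. Nanog, a core pluripotency factor, shows how close a call can be: its region 4729 bp from the gene (chr6:122702719-122702760) ranked 9344 and 14316 in iHA-Foxk1 and 14849 and 15194 in the knockout, on either side of the limit of 14519. The primed epiblast list had 2 knockout-only regions (Fgf5 and Etv4) and 1 control-only region (Cdh2) of 10.

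Control-only regions were frequent around regulators of cardiac progenitors. Of the 28 reproducible regions whose nearest protein-coding gene is on that list of 25 genes, 12 were control-only (42.9%) and 1 was knockout-only (3.57%). A region can join a list only if it has a gene end within 100 kb, and over the 13143 reproducible regions that do, 7.27% were control-only and 7.96% knockout-only. Of all reproducible regions 62.1% lay within 1 kb of a gene end, against 16.8% of control-only and 12.1% of knockout-only regions. Most regions of the cardiac list lay farther out, so the contrast with 7.27% is overstated. The same limit applies to any list below whose regions lie mostly away from gene ends. The list and the comparison were chosen with earlier results of these data known, so the count is not independent support. Summits near the list among the 14519 best numbered 17 and 20 in the knockout and 29 and 41 in iHA-Foxk1, and the groups did not overlap. At day 3 the same counts were 17 and 17 in the knockout and 24 and 18 in iHA-Foxk1, so the lower iHA-Foxk1 count lay just above the knockout. Summits with any gene end within 100 kb did not overlap either. At day 5 their share of the 14519 best was 90.9% and 90.2% in the knockout against 93.7% and 95.5% in iHA-Foxk1. At day 3 it was 84.3% and 84.4% against 85.7% and 85.7%. In libraries of mixed cells, fewer cells of a type and a less open region in each cell cannot be told apart.

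Hand1, a basic helix-loop-helix factor of the early heart and extraembryonic mesoderm, carried 3 of the 12 regions. Its gene-end region (chr11:57831933-57832065) ranked 4016 and 5396 in iHA-Foxk1 and 37795 and 35917 in the knockout, and at day 3 it ranked between 36339 and 45960 in all 4 libraries. A region 32699 bp away (chr11:57864846-57864847) ranked 511 and 4690 in iHA-Foxk1, had no knockout summit within 1 kb at any score, and was listed in 1 of the 4 day 3 libraries, at rank 34023. The Hand1 region 4905 bp from the gene ranked 10523 and 11496 in iHA-Foxk1 and likewise had no knockout summit. At Hand1, then, both day 5 iHA-Foxk1 libraries held all 3 regions among their 14519 best, and no knockout and no day 3 library held any of them there.

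Hand2, the paralogue that acts in the second heart field and right ventricle, differed in this respect. Its control-only region 8176 bp away (chr8:57312694-57312807) ranked 6495 and 11691 in iHA-Foxk1 and 20245 and 19668 in the knockout. At day 3 it ranked 9848 and 13298 in the knockout and 8525 and 9495 in iHA-Foxk1, so it was among the 14519 best of all 4 day 3 libraries and of neither day 5 knockout library. The other Hand2 region, 9516 bp away (chr8:57334033-57334215), ranked 7254 and 12705 in iHA-Foxk1, 19306 and 20484 in the knockout, and between 17257 and 21488 at day 3. In both, knockout summits were present but beyond the 14519 best.

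The Gata zinc-finger factors of heart and endoderm followed. At the Gata5 gene end (chr2:180334756-180334893, in the promoter shown above) the ranks were 13221 and 6797 in iHA-Foxk1 and 14651 and 18429 in the knockout, so the arms are separated by the limit at 14519 but knockout replicate 1 lies just outside it. A Gata5 region 19413 bp away (chr2:180354916-180355012) ranked 10656 and 12029 in iHA-Foxk1 and was listed in no knockout and no day 3 library. The Gata6 gene end ranked 8411 and 7456 in iHA-Foxk1 and 18995 and 15756 in the knockout, and at day 3 11108 and 11704 against 23406 and 17703, the same order on both days. Gata4 was not called: its region ranked 7634 and 7950 in iHA-Foxk1, and 13082 in knockout replicate 2 and 16129 in knockout replicate 1.

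The remaining control-only regions of the list lay near Fgf10, Isl1, Bmp2 and Smyd1. In Fgf10, a ligand of the second heart field, the region (chr13:118759125-118759133) ranked 9753 and 10975 in iHA-Foxk1 and 15939 and 21163 in the knockout. At day 3 it was listed in iHA-Foxk1 (12145 and 15764) and in neither knockout library. The region 96541 bp from Isl1, the LIM-homeodomain factor of the second heart field (chr13:116201699-116201729), ranked 10908 and 11351 in iHA-Foxk1 and 19973 in knockout replicate 2, and was listed by every day 3 library. The regions near Bmp2, a BMP ligand, and Smyd1, a muscle histone methyltransferase, ranked 11009 and 14195, and 11710 and 14055, in iHA-Foxk1. The first had no knockout summit and the second had 1, at rank 43038 in knockout replicate 1. Of the 12 regions, 6 had a weaker summit in both knockout lists, 2 in 1 of them and 4 in none. The knockout-only region of the list lay 24261 bp from Bmp5, also a BMP ligand, and ranked 11198 and 14111.

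**Figure D2:**
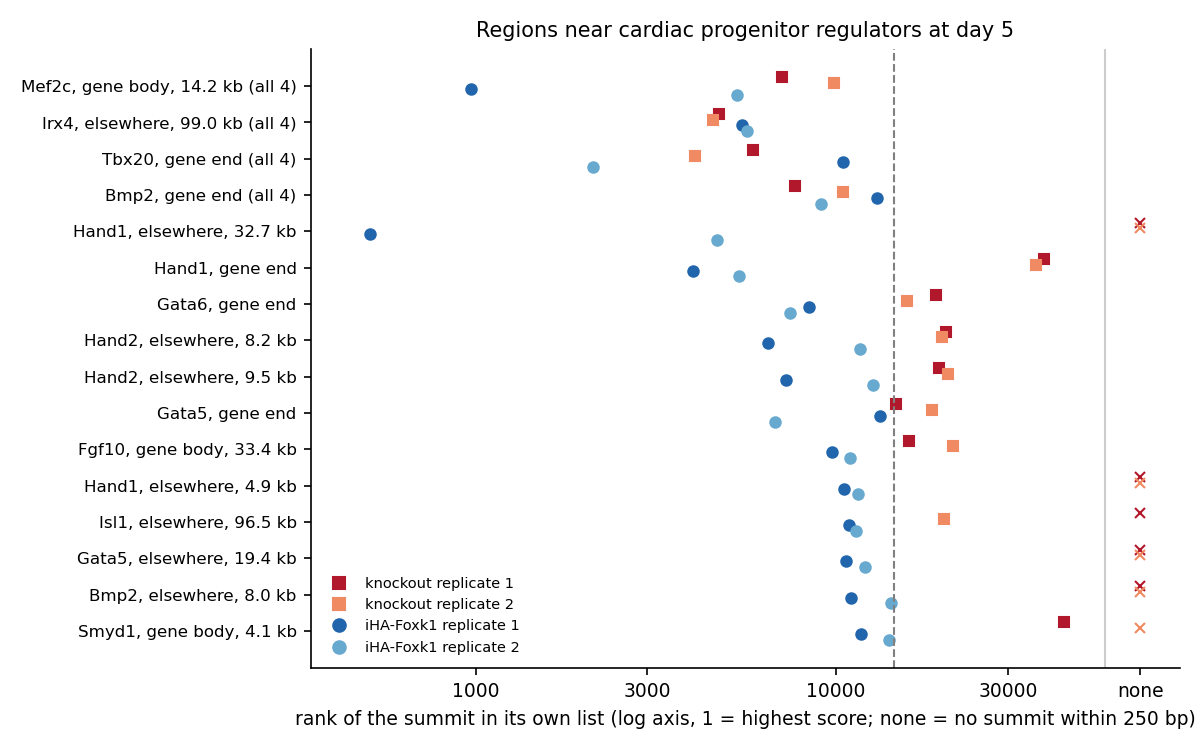
Rank of the summit (horizontal log axis, 1 is the highest score) in each day 5 library for the 12 control-only regions and the 4 regions held by all libraries near cardiac progenitor regulators; squares are knockout and circles iHA-Foxk1 libraries, crosses mark no summit within 250 bp, and the dashed line is the limit of 14519. The Hand1 region at 32.7 kb has iHA-Foxk1 ranks of 511 and 4690 and no knockout summit, as is also the case for 3 other regions, while Gata5 at its gene end has knockout ranks of 14651 and 18429 close to the line.

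Not every regulator differed. The gene end of Tbx20, a T-box factor, ranked 5886 and 4075 in the knockout and 10475 and 2125 in iHA-Foxk1. The Irx4 region, near a ventricular homeobox gene, ranked 4733 and 4551 against 5501 and 5673. In both cases the ranks of the arms overlapped or lay close together. The gene end of Isl1 ranked 3441 and 3616 in the knockout and 2361 in iHA-Foxk1 replicate 2, and iHA-Foxk1 replicate 1 did not list it. Of the 25 genes, 6 had no summit among the 14519 best in any library: Nkx2-5, Tbx5, Tbx1, Hopx, Smarcd3 and Foxc2. When a weaker summit of the other arm anywhere in its list counted as present, 4 of the 12 calls were kept. With all summits of every list, 5 of 68 reproducible regions near these genes were control-only, beside 700 of 34964 over all. At the same list length, 22 of 42 were control-only without iHA-Foxk1 replicate 1, beside 2763 of 16513 over all reproducible regions. Without iHA-Foxk1 replicate 2 it was 21 of 38, beside 5294 of 18680. It was 12 of 32 without knockout replicate 1, beside 1503 of 16022, and 15 of 32 without knockout replicate 2, beside 1381 of 15900. Leaving out a library at this length cannot remove any of the 12 calls, so these counts do not test them.

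Lists of other cell types were read in the same way. Of 19 lists, 11 had fewer summits in both knockout than in both iHA-Foxk1 libraries among the 14519 best, and none had more. The direction was also that of all genes together: 13194 and 13100 of the 14519 best knockout summits had a gene end within 100 kb (90.9% and 90.2%), against 13610 and 13869 in iHA-Foxk1 (93.7% and 95.5%). At day 3, 9 lists had fewer in both knockout libraries, 6 of them among these 11, and none had more. The control-only share was above the 7.27% of regions with a gene nearby in 14 lists, and the knockout-only share above the corresponding 7.96% in 8. The cardiomyocyte contractile list had 4 and 4 summits in the knockout and 8 and 8 in iHA-Foxk1, and 3 of its 7 reproducible regions were control-only (42.9%, beside 7.27%), near Tnni1, Actc1 and Myl4. Of its 20 genes, 12 had no summit among the 14519 best in any library, Myh6, Myh7 and Tnnt2 included, so the contractile programme of mature heart muscle is hardly represented in these lists. The primitive streak list had 4 and 4 against 11 and 9 summits, and at day 3 already 7 and 4 against 15 and 13. Its 2 control-only regions lay at the gene ends of Lhx1, a LIM-homeodomain factor of the streak and node (2910 and 14351 in iHA-Foxk1, 21329 and 20603 in the knockout), and Wnt3, the ligand that starts the streak (12822 and 11256 against 22509 and 15049). Its 1 knockout-only region lay at Foxa2, which is also on the endoderm list. T, Mesp1, Mixl1 and Tbx6 had no summit among the 14519 best in any library.

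**Figure D3:**
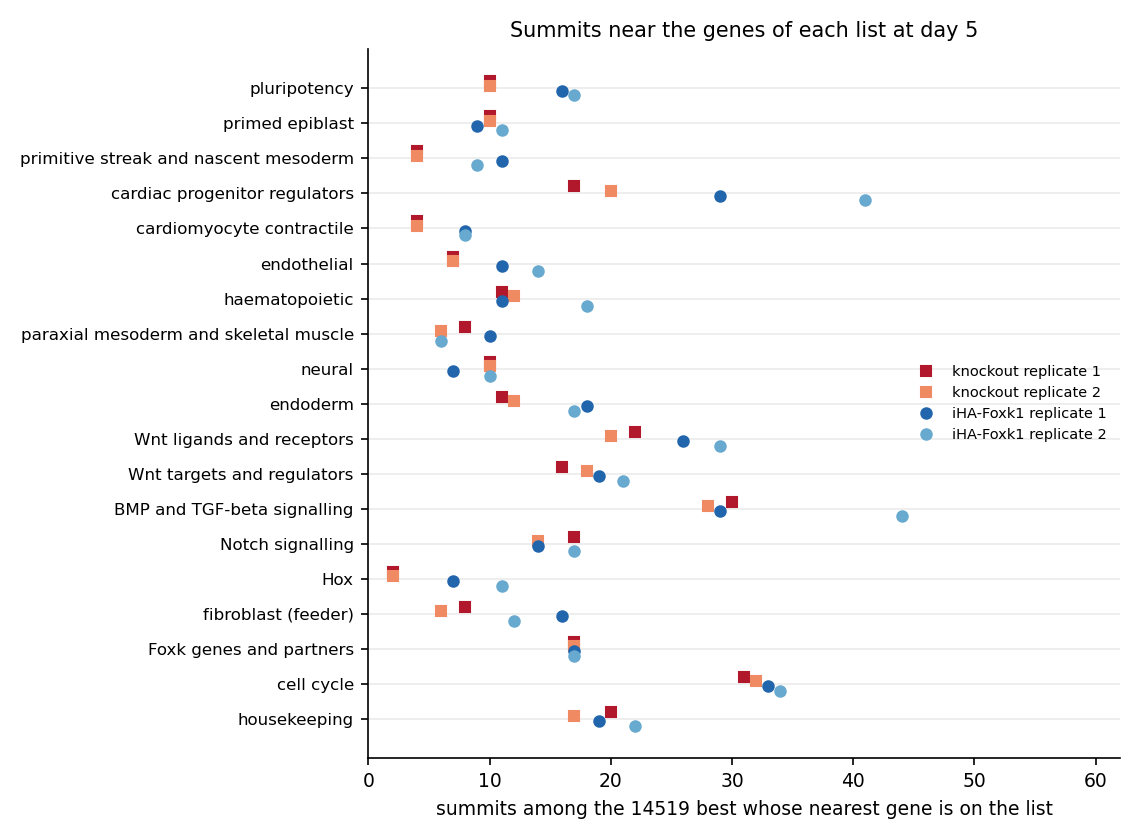
Number of summits among the 14519 best whose nearest protein-coding gene is on each of the 19 gene lists (horizontal axis), with squares for knockout and circles for iHA-Foxk1 libraries of day 5. The cardiac progenitor list is at 17 and 20 against 29 and 41, and the neural list at 10 and 10 against 7 and 10.

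The other germ layers and tissues gave smaller counts. The Hox list had 2 and 2 summits in the knockout and 7 and 11 in iHA-Foxk1, with 3 of 5 reproducible regions control-only (60.0%, beside 7.27%), near Hoxb1, Hoxc6 and Hoxd1. These genes pattern the body axis, and 29 of the 39 had no summit among the best of any library. Endoderm genes had 11 and 12 against 18 and 17 summits, and at day 3 10 and 8 against 14 and 15. Of 15 reproducible regions 6 were control-only (40.0%, beside 7.27%; Cxcr4 and Cdx2 with 2 each, Gata6 and Cubn) and 3 knockout-only (beside 7.96%; Cubn, Sox17 and Foxa2). Gata6 is also on the cardiac list. The opposite calls in Cubn lay within 1 kb of each other, with ranks of 9850 and 5376 in iHA-Foxk1 and 6634 and 7378 in the knockout. Both arms thus listed that site among their best. Endothelial genes had 7 and 7 against 11 and 14 summits. Of 8 reproducible regions 3 were control-only (37.5%, beside 7.27%; Erg, Tie1 and Eng). Another 2 were knockout-only (25.0%, beside 7.96%; Sox17 and a second site in Erg), so both shares were above those of all regions with a gene nearby. The neural list had 3 knockout-only (37.5%, beside 7.96%) and no control-only regions among 8, with 10 and 10 against 7 and 10 summits. The calls included regions near Neurog2 and Zic1, regulators of neurogenesis, and the Neurog2 region (chr3:127634303-127634304) ranked 11045 and 10988 in the knockout and 16326 in iHA-Foxk1 replicate 2. All 3 were listed in every day 3 library. Genes of paraxial mesoderm and skeletal muscle had 8 and 6 against 10 and 6 summits. Of 7 reproducible regions 2 were knockout-only (28.6%, beside 7.96%; Meox2 and Tbx18) and 1 control-only (14.3%, beside 7.27%), at another site of Tbx18. Haematopoietic genes had 11 and 12 against 11 and 18 summits, and the 1 call among 11 regions was control-only (9.09%, beside 7.27%), near Runx1.

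Markers of fibroblasts, the feeder cells, moved with the cardiac list. Of 18 fibroblast genes, 6 and 6 had a summit in the knockout and 9 and 11 in iHA-Foxk1, with 8 and 6 against 16 and 12 summits. At day 3 these were 5 and 6 against 6 and 4. Among the defining genes, Col3a1, Dcn, Lum, Postn, Prrx1, Fap and S100a4 had no summit among the best of any day 5 library, while Col1a2 and Loxl1 each had a control-only region 15554 and 13400 bp away. Of the 7 reproducible regions near fibroblast genes, 2 were control-only (28.6%, beside 7.27%) and none was knockout-only. The part of fibroblasts in the cardiac counts was not tested. Housekeeping genes had 20 and 17 summits in the knockout and 19 and 22 in iHA-Foxk1, and cell cycle genes 31 and 32 against 33 and 34. Of the 32 reproducible cell cycle regions, 24 were held by all 4 libraries. None was knockout-only (beside 7.96%) and 2 were control-only (6.25%, beside 7.27%), near Mki67 and in Cdk6. Within 1 kb of the Cdk6 region the knockout had summits at ranks 12620 and 9948, so both arms listed that site among their best.

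Calls near signalling genes were of both kinds. Of 23 reproducible regions near Wnt ligands and receptors, 3 were control-only (13.0%; Wnt3, Fzd10 and Fzd6) and 1 knockout-only (4.35%; Wnt2b), beside 7.27% and 7.96% of all regions with a gene nearby. Axin2, a feedback inhibitor and target of Wnt signalling, had the 1 control-only region among 16 of Wnt targets (6.25%, beside 7.27%). It ranked 6728 and 12307 in iHA-Foxk1 and had no knockout summit within 1 kb. Of 30 regions near BMP and TGF-beta genes, 3 were control-only (10.0%; Smad6, Chrd and Bmp2) and 4 knockout-only (13.3%; Bmpr1b, Smad6, Lefty2 and Bmp5). Smad6, an inhibitory Smad, had regions of both kinds at different sites. Within 1 kb of its knockout-only region iHA-Foxk1 replicate 1 had a summit, at rank 10431. Notch genes had 1 control-only region of 16 (6.25%, beside 7.27%), in Rbpj, the DNA-binding partner of Notch. Knockout replicate 1 had a summit within 1 kb of it, at rank 3654.

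Called regions lay away from gene ends. Of the knockout-only regions 12.1% lay within 1 kb of an end of a protein-coding gene (Wilson interval 10.7 to 13.8), of the control-only regions 16.8% (14.7 to 19.1), and of the regions held by all 4 libraries 78.0%. Knockout-only regions were farther out: 39.3% (37.0 to 41.6) had no gene end within 100 kb, against 15.9% (13.9 to 18.2) of control-only and 1.74% of shared regions. Control-only regions lay more often inside gene bodies, at 35.3% (32.5 to 38.1) against 26.9% (24.8 to 29.0). Over whole lists the gene-end share was alike in the 2 arms, 61.9% and 60.5% in the knockout and 58.4% and 62.8% in iHA-Foxk1. The share depends on list length: with the lists cut to 7259 summits, 63.7% of 364 knockout-only and 43.8% of 315 control-only regions lay at gene ends, which turns the order of the sets. Leaving out iHA-Foxk1 replicate 2 also turned it, to 45.0% and 30.5%.

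**Figure D4:**
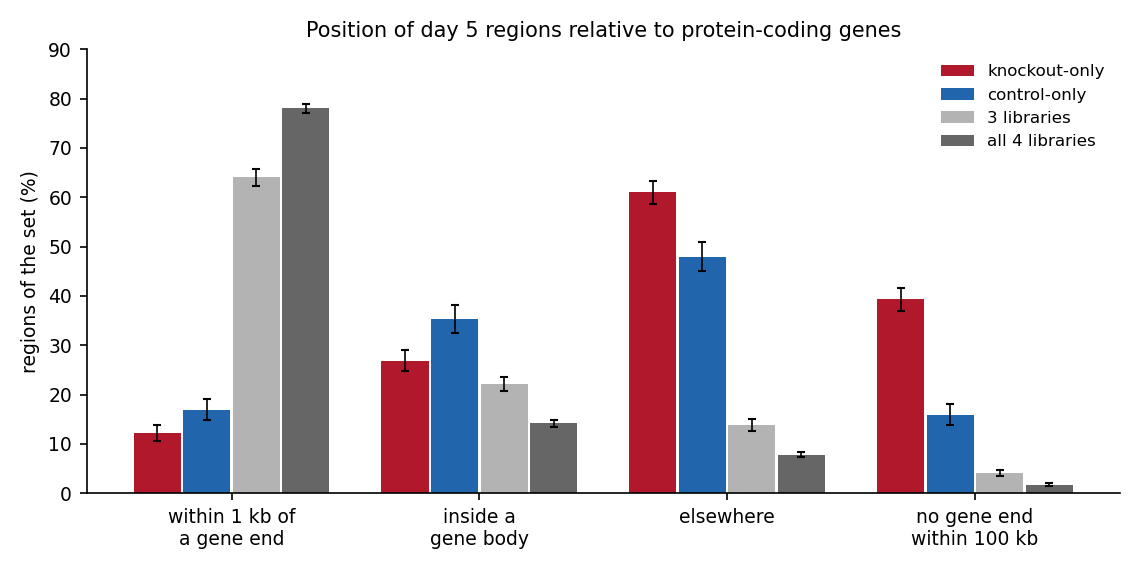
Share of each set of day 5 regions (vertical axis, percent, with 95% Wilson intervals as bars) that lay at gene ends (1 kb or less), in gene bodies or elsewhere, and the share without a gene end within 100 kb, which overlaps these classes. Called regions are mostly outside gene ends, at 12.1% and 16.8% against 78.0% for regions of all 4 libraries.

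Many called regions had a weaker summit in the other arm, below the limit of 14519. Among knockout-only regions, iHA-Foxk1 replicate 2 listed a weaker summit below its 14519 best for 674 (39.1%, median rank 22900), and iHA-Foxk1 replicate 1 could list none. Among control-only regions, knockout replicate 1 listed a weaker summit for 842 (74.1%, median rank 23450) and knockout replicate 2 for 689 (60.6%, median rank 22620). With no summit of the other arm within 1 kb at any score, 936 knockout-only (54.3%) and 166 control-only regions (14.6%) remained. The longer knockout lists give control-only regions more chances of a weaker summit, so these counts are not comparable between directions.

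Some gene ends carried a call in each direction, with the summits at different positions. Within 1 kb of an opposite call lay 24 regions of each set. At Tmem267 the knockout-only summit (chr13:119488405, ranks 413 and 536) fell 68 bases before 1 annotated start, and the control-only summits (chr13:119488087-119488092, ranks 1782 and 4795) 1 to 6 bases after another. The same split was present at day 3, where the first was listed by both knockout libraries (773 and 976) and neither iHA-Foxk1 library and the second by both iHA-Foxk1 libraries (2739 and 5244) and neither knockout library. Zfat and Ints13 also had a pair of calls within 1 kb, with the knockout-only summits at ranks of 2220 and 2496, and 2319 and 2412. In such pairs both arms had a summit at the gene end, at different positions.

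The best-ranked calls included a pair of opposite calls near Col19a1, 25392 and 26788 bp from the gene. No list of artefact-prone regions was applied, so whether summits of such high rank mark open chromatin was not tested. The control-only summit at chr1:24613314 ranked 3 and 3 at day 5 and 3 and 3 in the day 3 iHA-Foxk1 libraries, and was listed in no knockout library of these days, but all 4 day 10 libraries, knockout included, listed it. The knockout-only summit at chr1:24614710 ranked 8 and 7. At Hprt (region chrX:52988096-52988129) the ranks were 7070 and 9460 in the knockout at day 5 and 11898 and 10327 in the knockout at day 3. No iHA-Foxk1 library of either day had a summit within 250 bp, although Hprt is a housekeeping gene. Hprt is a common insertion site for doxycycline-inducible transgenes in mouse stem cells. Whether the iHA-Foxk1 line carries one there is not given in the sources used here, so an altered locus cannot be told apart from a less open one. Over all calls, 50 knockout-only regions (2.90%) were in both day 3 knockout and neither day 3 iHA-Foxk1 library, and 104 control-only regions (9.15%) were in both day 3 iHA-Foxk1 and neither day 3 knockout library. For these the order of the genotypes was the same on both days.

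Calls also repeated near some genes. Itgbl1, an integrin beta-like gene, had 4 knockout-only regions, at knockout ranks from 7243 to 12779, and all 4 were listed in every day 3 library. Unc5c, a netrin receptor gene, had 3 knockout-only regions. Tle3, a Groucho corepressor, had 4 control-only regions at iHA-Foxk1 ranks from 6694 to 11615, and 2 of these were listed in no day 3 library. Ddc, which encodes aromatic amino acid decarboxylase, Rbpms, an RNA-binding protein, and Rgs3, a regulator of G-protein signalling, had 3 each. The Ddc region at chr11:11868409-11868427 had a knockout replicate 2 summit within 1 kb, at rank 11395. In all, 983 genes were nearest to a knockout-only region and 879 to a control-only region.

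By chromosome, the knockout-only share was highest on X, where 102 of 467 reproducible regions were called (21.8%, 18.3 to 25.8, beside 12.1% over all). It was 18.2% on chromosome 3 and 18.1% on chromosome 1, and lowest on chromosomes 19 (6.61%), 17 (7.02%) and 11 (7.25%). The control-only share ran from 5.57% on X to 9.55% on chromosome 14. Of the 14519 best summits, 3.66% and 3.59% lay on X in the knockout and 3.02% and 2.82% in iHA-Foxk1. The X chromosome thus took a larger part of both knockout lists.

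**Figure D5:**
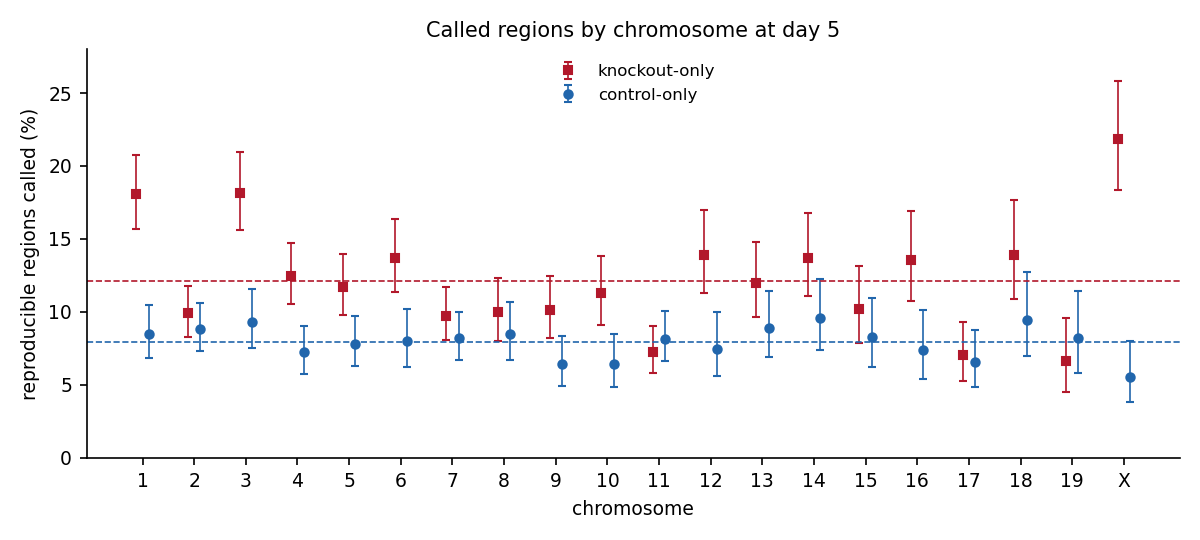
Share of reproducible day 5 regions called knockout-only (squares) and control-only (circles) on each chromosome (vertical axis, percent, with 95% Wilson intervals), with dashed lines at 12.1% and 7.97%, the shares over all chromosomes. Knockout-only points stand highest on X (21.8%), 3 and 1, and control-only points stay between 5.57% and 9.55%.

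Sequence was examined in promoters, since no genome of the build was at hand for the regions themselves. The window was 250 bases before to 50 after each annotated start, for 21044 promoters of 17273 protein-coding genes. Reproducible knockout-only regions touched 142 promoters, control-only regions 105 and regions of all 4 libraries 6160. Median CpG counts per window were 18.5, 15 and 24, and median GC contents 60.8%, 58.3% and 63.0%, beside 13 CpG and 56.7% over all promoters. Promoters with called regions therefore lay between those of shared regions and promoters in general. The motifs, each searched on both strands and none containing another, were the forkhead motif TGTTTAC, the GATA motif AGATAA, a first E-box CATCTG, a second E-box CAGCTG and another E-box CACGTG, with the T-box motif AGGTGTGA, the TEAD motif GGAATG, the AP-1 motif TGANTCA and the octamer ATTTGCAT. The list also held the SOX motif ACAATGG, the GC box GGGCGG, the CCAAT box, the NRF1 palindrome, the CRE motif TGACGTCA and the ETS motif CCGGAAG. The forkhead letters were found in 7 of 105 control-only promoters (6.67%, 3.27 to 13.1), Cdx2 among them, in 1 of 142 knockout-only promoters (0.704%, 0.124 to 3.88) and in 3.03% of all promoters. The interval of the knockout-only set holds the share of all promoters, that of the control-only set starts just above it, and the counts are small. AP-1 letters were in 2 control-only promoters (1.90%, 0.524 to 6.68), 7.04% of knockout-only and 7.04% of all promoters. All promoters include 12970 without a reproducible region, where the AP-1 share was 9.40%. In promoters with regions of all 4 libraries it was 3.17%, which the control-only interval holds. Of the 15 motifs, the interval of the control-only set lay above the share of all promoters for 2 (forkhead and GC box) and below it for 1 (AP-1), and that of the knockout-only set lay above it for 1 (GC box). The GC box was in 62.9% of control-only, 59.2% of knockout-only and 46.7% of all promoters, and in 74.4% of those with regions of all 4 libraries. The ETS letters were in 7.62%, 15.5%, 11.7% and 24.1% in the same order. A match is a description of letters and not of binding.

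Regions that all 4 libraries held were compared by rank. limma on the normal scores of the ranks, with Benjamini-Hochberg adjustment over the 8223 regions, called none higher and none lower in the knockout (0% called in each direction), the smallest adjusted p being 0.781. At an unadjusted p under 0.05 the counts were 142 higher and 234 lower. The spread between replicates was wider in iHA-Foxk1 than in the knockout, with an SD of the difference between replicates of 0.821 against 0.419 normal-score units. The counts rested on iHA-Foxk1 replicate 2: without it 275 regions were higher and 159 lower, on the assumption that the lone iHA-Foxk1 replicate 1 varies as the knockout does. The smallest p-values in the lower direction belonged largely to predicted genes of multi-copy families on chromosomes 14 and 17. The region near Lamtor3-ps (chr14:6427013-6427181) ranked 357 and 434 in iHA-Foxk1 and 9932 and 11036 in the knockout, a difference of -2.52 ± 0.33 (SE) normal-score units with a limma adjusted p of 0.781. Reads from near-identical copies can be placed at any of them, so such regions are uncertain. In the higher direction, the region beside Sfi1, a centrosomal protein gene (chr11:3125620-3125625), ranked 129 and 109 in the knockout and 3923 and 5518 in iHA-Foxk1, with a limma adjusted p of 0.781 as well. Sfi1 also had 3 knockout-only regions inside the gene. No list of artefact-prone regions was applied, and how reads map at Sfi1 was not tested, so these regions are uncertain as well.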

How the data were processed

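Members and gene lists were chosen with earlier results of these data known. The submitters' processing notes name mm10, MACS2 without a version, and Bowtie2 2.2.4. The deposited score is a −log10 value from MACS2, and whether of p-values or of q-values is not given in the sources used here. Each deposited list is 1 library, so replicates were not pooled, and read depth is unknown, so only the number of summits limits precision.

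Scores were used to rank summits within a list. Lists on chromosomes 1 to 19 and X were cut to 14519 summits, the length of the shortest, and merged by single linkage at 250 bp. In knockout replicate 2, 249 summits tied at the last score and 44 were kept. No list of artefact-prone regions was applied. The nearest of 21627 protein-coding genes came from a RefSeq table of GRCm38.p6 without strand, so gene ends (1 kb) replace start sites, with 100 kb as the limit. All 372 list symbols matched. Regions held by all 4 libraries were compared with limma 3.58.1 (R 4.3.3) on normal scores of ranks. A trial on simulated data gave all 4 libraries the same spread, unlike these data, so it does not bear on the counts. Wilson intervals are at 95%. Named regions are the targeted gene and Foxk2, the 12 best-ranked calls a direction without a summit of the other arm within 1 kb, the 10 best at gene ends, list calls up to 6 a direction (all for the cardiac list), genes with 3 or more calls, and the 10 smallest p-values a direction. Gata4, Tbx20, Irx4 and the Isl1 gene end were named after their values were seen, as uncalled members of the cardiac list. One call on the neural list is not reported here by name. Alternatives changed list length, merging distance, the absence rule, chromosomes, ties and the libraries used. The order of ties and the day 3 state under each setting were added after seeing the data. No paired design is stated. Chromosome Y, contigs and mitochondrial summits took no part in the comparison.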

Additional observations from a re-analysis of the deposited data

Results flagged for a closer look

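Summits on chromosome Y, which the comparison left out, made up 0.344% of all summits in knockout replicate 1 and 0.336% in knockout replicate 2 at day 5 (167 of 48562 and 142 of 42275). These shares drew attention because they lie above those of the iHA-Foxk1 libraries, 0.124% and 0.141% (18 of 14540 and 48 of 34090). At day 3 the shares were 0.408% and 0.427% in the knockout and 0.317% and 0.330% in iHA-Foxk1. At day 10 they were 0.812% and 0.834% in the knockout and 0.425% and 0.474% in the control libraries. The knockout shares were thus higher than those of the other arm on each day. The lists of days 5 and 10 differ in length between the arms. The cause was not tested.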

How the results depend on the processing

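Counts of calls and their gene-end share moved under many settings. No named region changed direction. For the calls this follows from the presence rule in these settings, so it is no sign of stability. Main values are 1723 knockout-only and 1137 control-only regions, gene-end shares of 12.1% and 16.8%, 12 control-only cardiac regions, and 87.3% and 49.7% of knockout-only and control-only regions found in both day 3 iHA-Foxk1 libraries. In this order, all summits of every list gave 12889, 700, 6.26%, 10.6%, 5, 63.2% and 18.3%. Lists of 7259 summits gave 364, 315, 63.7%, 43.8%, 2, 91.8% and 81.6%. Absence judged in full lists gave 1049, 225, a knockout-only gene-end share of 5.53%, 4, 85.3% and 24.4%. No summit of the other arm within 1 kb gave 936, 166, 2.03%, 4.22%, 4, 90.1% and 20.5%. Merging at 100 bp moved the gene-end shares to 27.0% and 29.0% and the control-only day 3 share to 57.7%, and merging at 500 bp the knockout-only gene-end share to 9.16%. Day 3 lists cut to 14519 gave 55.7% and 7.92%. All chromosomes and reversed ties moved none of these beyond the spread allowed.

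Leaving out 1 library gave 1994 to 8468 knockout-only and 1381 to 11719 control-only regions, gene-end shares of 6.24% to 45.0% and 8.17% to 30.5%, 12 to 53 cardiac regions, and day 3 shares of 73.4% to 91.6% and 13.7% to 58.6%. Without iHA-Foxk1 replicate 1 and with longer lists, 8468 and 11719 regions were called, and at the same list length 1994 and 2763. Dropping iHA-Foxk1 replicate 2 gave 4162 and 5294, dropping knockout replicate 1 gave 3085 and 1503, and dropping knockout replicate 2 gave 2884 and 1381. In both cases without an iHA-Foxk1 library, control-only regions outnumbered knockout-only regions, the reverse of the main order. With 1 library left in an arm, a call for that arm needs no second library, so regions held by that library alone can be called. In the main setting 4011 regions were held by iHA-Foxk1 replicate 1 alone and 1584 by replicate 2 alone. Dropping a knockout library loosens the rule for the knockout in the same way, so these counts do not test the order of the arms.

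The limma counts of rank shifts, 0 higher and 0 lower, ranged from 0 to 275 and from 0 to 159 without 1 library. With the replicate number as a block they were 11 and 22. The numbers share no stated origin, and the differences between replicates correlated at -0.0352 between the arms, so the block is given only here. Of 147 named regions, 41 kept their call in lists of 7259 and 74 when absence was judged in full lists. Read depth is unknown, so an unlisted summit is not evidence of closed chromatin.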
